A study of Sus scrofa with 220 samples.

Results

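The last solid stage of the pig embryo, the morula (M), was compared with the inner cell mass (ICM) of the early blastocyst (EB), the next stage sampled. The M group was every cell labelled Morula except 1 whose embryo could not be read from its cell identifier (AO23_e5), which left 46 of 47 cells. The ICM group was every cell labelled EB ICM, 24 cells. Together they made 70 of the 220 cells of the series. The cells came from embryos of several crossbred Large White and Landrace sows after artificial insemination, with no treatment, and the labels gave no embryonic day. The zona was dissolved, embryos were taken apart, single cells were picked by hand, and polyadenylated RNA was amplified with Smart-seq2, which reads along whole transcripts. The counts of all cells of a group from 1 embryo were added up, with the embryo read from the letters of the cell identifier, which gave 8 sums for M and 7 for ICM. All M and ICM embryos differed, so the groups shared no embryo.

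In the morula all cells still form 1 compacted ball, and the outer cells begin to polarize and to seal their contacts with tight junctions. With the formation of the blastocoel the outer cells become trophectoderm (TE), which gives the placenta, and the cells left inside form the ICM, which gives epiblast and hypoblast. Interleukin 6 (IL6) signals through its own receptor subunit IL6R and the shared subunit IL6ST, which activate JAK kinases and STAT3. Integrins such as ITGA5 bind matrix proteins, Eph receptors such as EPHA2 bind ephrins on neighbouring cells, and midkine (MDK) is a secreted heparin-binding growth factor.

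The labels limited the comparison in 3 ways. Morula cells were not divided into inner and outer cells, so the M sums hold both. The ICM and TE cells of a blastocyst were told apart by clustering of these same expression values and not by dissection, so a low level of TE genes in ICM is not independent of the label. A further comparison of M with all EB cells, ICM and TE summed per embryo, is therefore given beside the main one. It was added after the data were seen and shares the M sums. The EB sums hold the cells that were sampled and not whole blastocysts. Their mix of ICM and TE cells differed between embryos, and some embryos gave TE cells only. The EB level of a gene that differs between ICM and TE depends on this mix. In addition, 1 TE sum was a single cell of uncertain embryo (E6-ER2) with a KRT18 level of 0.217 CPM (counts scaled to a common library size), against a median of 10173 CPM over the 10 TE sums. This cell was kept in the EB comparison.

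Between 1012604 and 5041162 reads were counted on genes per cell, with medians of 2099938 in M and 1994384 in ICM. An M sum held 2 to 10 cells and an ICM sum 1 to 7, and 2 ICM sums were single cells (embryos AD and AI). Sums held 5671355 to 22875488 counts in M and 1837131 to 14594091 in ICM. The number of genes detected per cell was 6001 ± 627 in M (mean ± SD over n = 8 embryos) and 5925 ± 518 in ICM (n = 7), a difference of -76.6 with p = 0.805 in an exact two-sided permutation test, whose smallest possible p was 0.000311. The correlation of log2(CPM + 1) over genes had a median of 0.891 between M sums, 0.778 between ICM sums and 0.797 between M and ICM sums.

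Of 14721 genes tested with edgeR, 361 differed between M and ICM at an adjusted p under 0.05, which is 2.45% of the genes. Of these, 218 were higher in ICM (1.48%) and 143 were higher in M (0.971%). The median log2 fold change, ICM minus M, over all genes was -0.017, and -0.13 when genes without counts in 1 group were set at the bound that 3 counts give. In 132 genes every ICM sum lay above every M sum (0.897%) and in 107 every M sum lay above every ICM sum (0.727%), and 151 of the called genes were of these kinds. Among the 255 called genes with more than 3 counts in both groups the median fold was 4.14, 73 changed by more than 8-fold and 19 by less than 2-fold. A further 33 called genes had no count in M and 29 had none in ICM. Gene symbols were known for 272 of the called genes, and the gene with the smallest p in each direction had none.

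**Figure D1:**
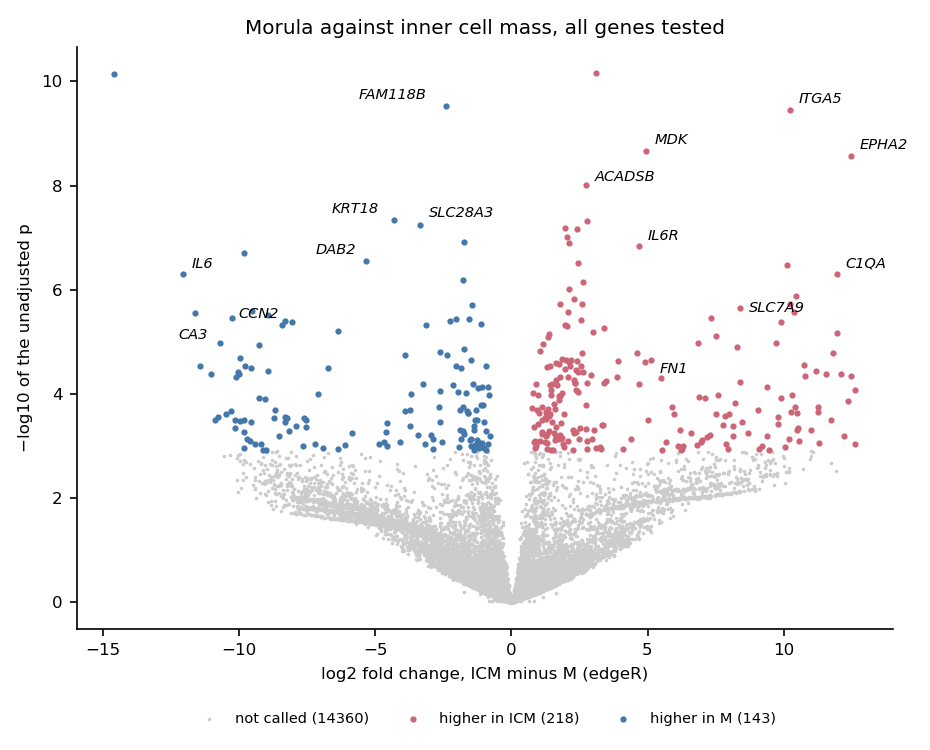
Each point is 1 of the 14721 genes tested, with the log2 fold change (ICM minus M, edgeR) on the x axis and −log10 of the unadjusted p on the y axis. Red points are the 218 genes called higher in ICM, blue points the 143 called higher in M and grey points those not called. The values past about 8 on the x axis belong mostly to genes with few or no counts in 1 group and are fitted values, not measured folds.

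The call count depended on the cells that entered. With the cells of the first 4 library pools alone (22 M and 12 ICM cells) 38 genes were called, and with the last 4 alone (24 and 12 cells) 132, of which 31 and 101 were among the 361. Against all EB cells together 185 genes were called (1.26%), 113 higher in EB and 72 higher in M. Of the 218 genes higher in ICM, 83 (38.1%) were also called higher in EB, and of the 143 higher in M, 36 (25.2%) were also called higher in M against EB. Both shares rest on the same M sums.

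IL6 transcripts were present in every morula and in no ICM cell, while ITGA5, EPHA2 and MDK were close to absent or low in morulae and high in every ICM sum. All 4 were called, also in all 27 alternative settings of the comparison of M with ICM, while against all EB cells IL6 was not called.

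For IL6 the M sums held 6.66 to 78.8 CPM with a median of 65.2, and all 7 ICM sums held 0. The groups did not overlap, and the 2 lowest M sums (embryos X and Y) lay apart from the other 6, which were all above 40 CPM. Over the group M held 5294 counts and ICM none, so IL6 was at least 934-fold higher in M than the level of 3 counts in ICM (edgeR, adjusted p = 0.000337). IL6 exceeded 1 TPM (a length-scaled expression unit) in 34 of 46 M cells and in none of the 24 ICM cells (0 of 24, where the floor of 3 cells gives 12.5%, a limit for counting error only, since the cells of 1 embryo are not independent) and in 20 of 28 TE cells. Against all EB cells the log2 fold change was -0.97 and was not called (adjusted p = 0.761). The IL6 call thus held for ICM and was not made over the EB cells sampled, whose mix of ICM and TE differed between embryos.

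ITGA5, the fibronectin-binding integrin alpha subunit, held 0 to 0.437 CPM in M (median 0.0406) and 96.6 to 325 CPM in ICM (median 202). Every ICM sum was above every M sum, and ITGA5 exceeded 1 TPM in 1 of 46 M cells against 23 of 24 ICM cells. The log2 fold change was 10.25 ± 0.88 (SE), with an adjusted p of 1.28e-06. Against all EB cells it was 9.68 with an adjusted p of 0.000187, and 18 of 28 TE cells exceeded 1 TPM. The rise in ITGA5 was thus measured over all EB cells sampled as well as in ICM.

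EPHA2, a receptor tyrosine kinase for ephrin-A ligands, gave 1 count over all M sums and 4055 over ICM. The ICM sums held 12.7 to 451 CPM with a median of 62.6 and all lay above the M sums, but they spread over a wide range, with 3 sums near 15 CPM and 4 above 60. The ratio of the group levels was 7659 with a 95% counting interval of 1374 to 302594, and the adjusted p was 6.55e-06. EPHA2 exceeded 1 TPM in 0 of 46 M cells (6.52% by the same floor of 3 cells), in 18 of 24 ICM cells and in 2 of 28 TE cells.

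MDK, unlike these, was measured in every sum of both groups, with 4.47 to 33.3 CPM in M (median 17.3) and 206 to 988 CPM in ICM (median 451). The groups did not overlap. Its log2 fold change was 4.95 ± 0.47 (adjusted p = 6.27e-06), and 3.89 against all EB cells (adjusted p = 0.000271).

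**Figure D2:**
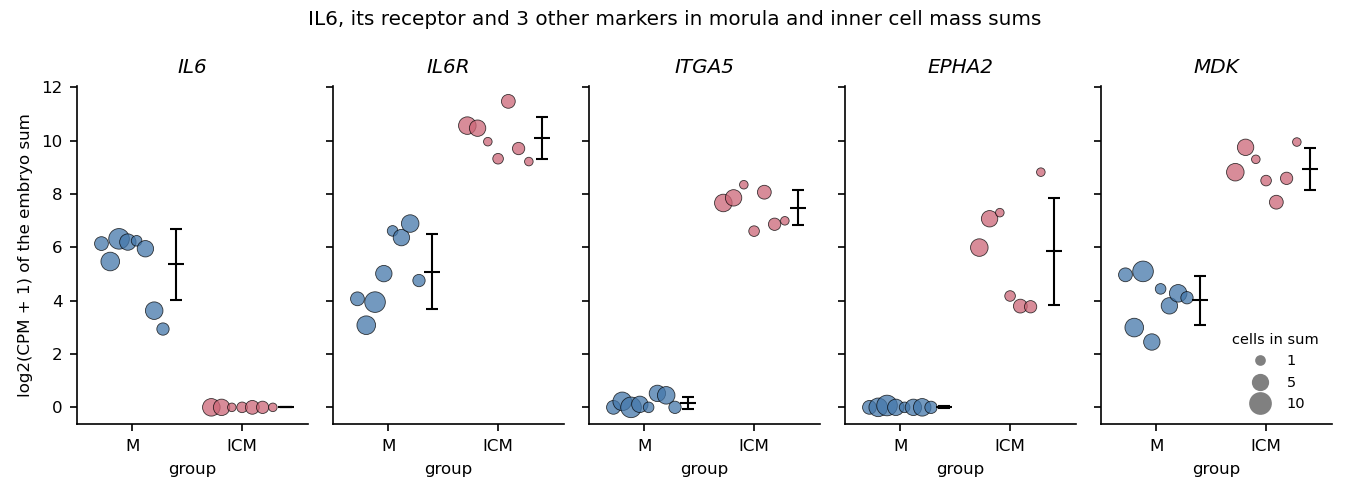
Each point is 1 embryo sum, with its size giving the number of cells in the sum, for the M group (blue, 8 sums) and the ICM group (red, 7 sums); the y axis is log2(CPM + 1), and the bar beside each group is the mean ± SD over sums. IL6 lies at 0 in all ICM sums, ITGA5 and EPHA2 lie near 0 in all M sums, and IL6R and MDK are detected in both groups without overlap.

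Within the IL6 and JAK-STAT list the ligand IL6 was higher in M while its receptor and STAT genes were higher in ICM. Of 28 members tested, IL6R, STAT3 and STAT2 were higher in ICM and IL6 was higher in M. These were 4 calls, against 2.45% of all genes, and the median log2 fold change of the list was 0.22. IL6R, the subunit that binds IL6, held 7.46 to 118 CPM in M (median 28.7) and 594 to 2846 CPM in ICM (median 997). Every ICM sum exceeded every M sum, and the log2 fold change was 4.69 ± 0.58 (adjusted p = 0.000134). IL6R exceeded 1 TPM in 17 of 46 M cells and in all 24 ICM cells. STAT3, the main transcription factor downstream of the receptor, held 19.5 to 209 CPM in M (median 81.9) and 103 to 991 CPM in ICM (median 602). The groups overlapped, because the single-cell ICM sum of embryo AD was the lowest, and the log2 fold change was 2.59 ± 0.46 (adjusted p = 0.00343). STAT2, which acts mainly in interferon signalling, was higher in ICM by 2.43 ± 0.49 (adjusted p = 0.00968) without overlap. Against all EB cells the STAT3 difference was 1.64 (adjusted p = 0.0975) and that of STAT2 1.42 (adjusted p = 0.333), neither called. The remaining parts of the pathway did not pass. IL6ST, the shared signalling subunit, held 44.5 to 388 CPM in M and 39.9 to 504.4 CPM in ICM (log2 fold change 1.13, adjusted p = 0.172). The kinases JAK1 (-1.37, adjusted p = 0.493) and JAK2 (1.92, adjusted p = 0.528) and the LIF receptor LIFR (-0.53, adjusted p = 0.938) were not called either.

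Across all 7 lineages of the series, levels were set on 1 common scale and are given as a description. IL6 was detected in all 8 M sums (median 66.1 CPM), had a median of 12.9 CPM in TE with a range of 0 to 206, and was at 0 in every ICM, late blastocyst (LB) and spherical embryo (Sph) sum, epiblast (EPI) and hypoblast (HYPO) alike. The TE range took in the whole M range. IL6R was highest in ICM, with a median of 962 CPM against 276 in LB HYPO and 157 in Sph HYPO, and the ICM range of 580 to 2806 CPM did not reach down to the 391 CPM of the highest HYPO sum. The medians of the other lineages were 46.1 CPM in TE, 28.9 in M, 4.29 in LB EPI and 2.37 in Sph EPI, and the TE and M ranges overlapped.

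ITGA5 had its highest median in LB HYPO (1164 CPM), followed by ICM (191) and Sph HYPO (164), and the ranges of ICM and Sph HYPO overlapped. The M sums, at a median of 0.0407 CPM, were the lowest of the 7 lineages by their median, although single sums of TE, LB EPI and Sph EPI were also at 0. EPHA2 had its highest median in ICM (59.4 CPM), with overlapping ranges in both hypoblast groups and both epiblast groups, and a median of 0 in M and TE. MDK had a median of 427 CPM in ICM, between the epiblast groups (1296 in LB and 730 in Sph) and TE (82.3), and the M sums were the only group with all values under 40 CPM.

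**Figure D3:**
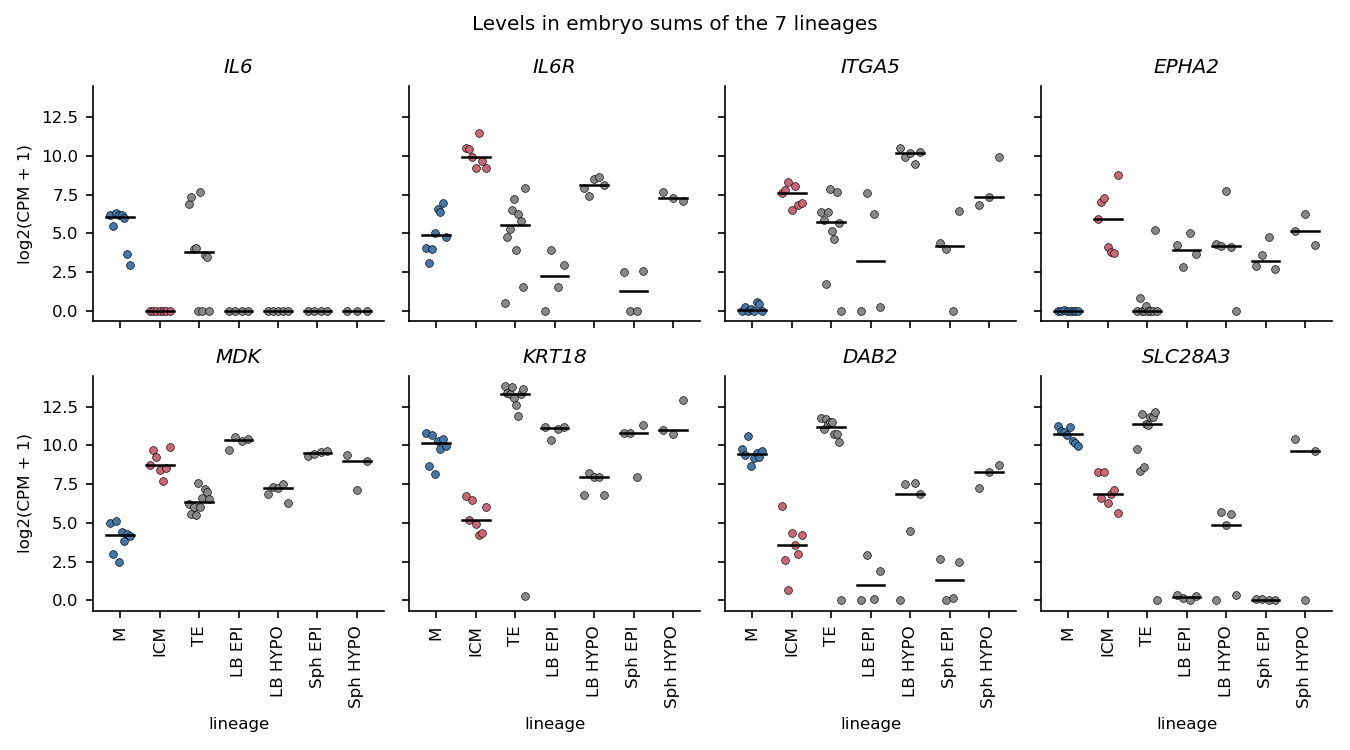
Each point is the sum of 1 embryo in 1 lineage, on log2(CPM + 1) scaled over all 7 lineages, with a line at the median; M is blue, ICM red and the other lineages grey (TE 10 sums, LB EPI 4, LB HYPO 5, Sph EPI 4, Sph HYPO 3). IL6 is above 0 only in M and TE sums, IL6R is highest in ICM, and KRT18, DAB2 and SLC28A3 are lower in ICM than in M and most TE sums; the TE point near 0 for KRT18 is the single cell E6-ER2.

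In the trophectoderm list the 2 keratins, DAB2 and CLDN4 were lower in ICM than in morulae. Of 19 tested, KRT18, DAB2, CLDN4 and KRT8 were higher in M and TGFBR3 was higher in ICM. These were 5 calls, against 2.45% of all genes, and the median log2 fold change of the list was -1.24. KRT18, a simple-epithelium keratin, held 286 to 1758 CPM in M (median 1147) and 18.02 to 110 CPM in ICM (median 36.2), with a log2 fold change of -4.33 ± 0.50 (adjusted p = 7.93e-05). Its partner KRT8 held 193 to 3336 CPM in M (median 1228) and 103 to 438 CPM in ICM (median 204), at -2.63 ± 0.53 (adjusted p = 0.00944). The KRT18 sums of the groups did not overlap and those of KRT8 did. The KRT8 call was lost with limma on mean log2(TPM + 1) (adjusted p = 0.234).

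DAB2, a clathrin adaptor of endocytosis, held 400 to 1570 CPM in M (median 687) and 0.574 to 69.3 CPM in ICM (median 10.97), at -5.35 ± 0.70 (adjusted p = 0.000226). It exceeded 1 TPM in all 46 M cells and in 10 of 24 ICM cells. CLDN4, a tight junction claudin, held 710 to 1237 CPM in M and 0 to 184 CPM in ICM, at -3.26 ± 0.64 (adjusted p = 0.00755). Against all EB cells the sign of both keratins and of DAB2 turned. KRT18 was then 2.38 higher in EB (adjusted p = 0.0975), KRT8 3.37 higher (adjusted p = 0.0728) and DAB2 0.54 higher (adjusted p = 0.798), none of them called. The lower level of these 3 genes was therefore a measurement of the cells labelled ICM and was not found over all EB cells. CLDN4 kept its sign at -1.79 without a call (adjusted p = 0.0965). Of the TE transcription factors none was called. GATA3 held 0 to 21.6 CPM in M and 0 to 4.77 CPM in ICM (-2.78, adjusted p = 0.301), GATA2 was not called (-1.11, adjusted p = 0.844), and CDX2 gave 27 counts in all of M and 0 in ICM, too few to be tested. TGFBR3, the betaglycan co-receptor, gave 1 count in M and 1510 in ICM, a ratio of 2852 with a 95% counting interval of 511 to 112726 (adjusted p = 0.000741), and 1 ICM sum (embryo AF) held none.

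Junction and polarity genes gave 3 calls of 26 tested (median -0.24), against 2.45% of all genes. PARD6B, a scaffold of the apical PAR complex, held 362 to 785 CPM in M (median 490) and 61.0 to 272 CPM in ICM (median 131). Its log2 fold change was -2.05 ± 0.32 (adjusted p = 0.00132), without overlap. Against all EB cells PARD6B was not called (adjusted p = 0.171). On the scale common to the 7 lineages its median was 391 CPM in TE and 497 CPM in M. CLDN4 was the other gene lower in ICM, and the water channel AQP11 was higher (4.08 ± 1.07, adjusted p = 0.0485, lost without any of 12 embryos, at up to 0.111). In the adherens junction list AFDN, which ties nectins to actin, was the 1 call of 16 tested (-1.79 ± 0.43, adjusted p = 0.0304, lost without any of 6 embryos, at up to 0.0652). The Hippo list held 20 tested genes, with a median of -0.56, and its 2 calls were CCN2 and CCN1, matrix-associated proteins known as transcriptional targets of YAP. CCN2 held 16.6 to 145 CPM in M (median 45.6) and 0 to 1.44 CPM in ICM, where 3 of the 7 sums held any count, at -8.06 ± 1.27 (adjusted p = 0.00135) and -8.84 against all EB cells (adjusted p = 0.000192). CCN1 gave 473 counts in M and 1 in ICM, a ratio of 250 with an interval of 44.7 to 9912 (adjusted p = 0.0218), and its call was lost without the ICM embryos AC or AG (adjusted p = 0.0509 and 0.051). It was also lost with sums of at least 2 cells (adjusted p = 0.0531). Against all EB cells CCN1, unlike CCN2, was not called. WWC2, a Hippo regulator named after its values were seen, was lower in ICM by the same test (-2.61 ± 0.46, adjusted p = 0.00343).

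The called hypoblast genes differed in direction. In the hypoblast list FN1, HNF4A and APOE were higher in ICM and GATA6 was higher in M. These were 4 calls of 18 tested, against 2.45% of all genes. The list median was 1.67. It was 2.80 with genes lacking counts in 1 group at their bound and those at or under 3 counts in both left out. FN1, fibronectin, held 0 to 90.1 CPM in M (median 13.0) and 171 to 2249 CPM in ICM (median 599), without overlap, at 5.12 ± 0.92 (adjusted p = 0.00428). GATA6 held 304 to 876 CPM in M (median 476) and 87.8 to 309 CPM in ICM (median 153), at -1.65 ± 0.34 (adjusted p = 0.00981), and the ranges touched only at their ends. GATA6 exceeded 1 TPM in all 46 M cells and in 20 of 24 ICM cells. The GATA6 call was lost with all 7 lineages in 1 model (adjusted p = 0.296). HNF4A, a nuclear receptor of visceral endoderm, rose by 5.55 ± 1.46 (adjusted p = 0.0488), a call lost without any of 13 embryos at an adjusted p of up to 0.0801. APOE, a lipoprotein, rested on 1 count in M and 272 in ICM (adjusted p = 0.0481), and its call was lost without any of 11 embryos, at up to 0.108. PDGFRA, a hypoblast surface receptor, held 0 to 91.9 CPM in M and 0 to 290 CPM in ICM (2.80, adjusted p = 0.124) and was not called.

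In the extracellular matrix list 5 of 35 genes were called, all higher in ICM, against 1.48% of all genes. The median over the list was 0 because many members had no or hardly any counts. It was 3.10 over members with counts above the floor. The 5 called genes were FN1, the protease inhibitor SERPINE2 (2.59 ± 0.39, adjusted p = 0.00094), the proteoglycan VCAN (4.67 ± 0.92, adjusted p = 0.00757), the matrix protease MMP2 (7.84 ± 1.76, adjusted p = 0.0198) and the basement membrane protein NID1 (1 count in M and 156 in ICM, adjusted p = 0.0439, lost without any of 12 embryos at up to 0.101). VCAN held 0 to 45.7 CPM in M and 97.0 to 663 CPM in ICM and MMP2 0 to 1.06 CPM and 0 to 135 CPM, so VCAN separated the groups and MMP2 did not. The MMP2 call was lost with limma on mean log2(TPM + 1) (adjusted p = 0.106) and with sums of at least 2 cells (adjusted p = 0.0773). Among 24 integrin and adhesion genes, ITGA5 and the vitronectin receptor subunit ITGAV (2.24 ± 0.59, adjusted p = 0.0488) were called, both higher in ICM. The list median was 0.40, and 1.48% of all genes were called higher in ICM. The ITGAV call was lost without any of 14 embryos, at an adjusted p of up to 0.114. ITGB1, the partner subunit of ITGA5, held 253 to 621 CPM in M and 378 to 1212 CPM in ICM and was not called (0.73, adjusted p = 0.12).

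Of the receptor families around EPHA2, MDK and FGF, few other members moved. Of 12 Eph receptors and ephrins tested, EPHA2 and EPHB4 were higher in ICM (list median -0.74), and EPHB4 rested on 4 counts in M and 486 in ICM (7.19 ± 1.77, adjusted p = 0.0354, lost without any of 10 embryos at up to 0.0719). Of 15 genes of midkine, pleiotrophin and their receptors, MDK was higher in ICM and NCL, nucleolin, was higher in M (-1.28 ± 0.29, adjusted p = 0.0218), with a list median of 0. NCL missed the threshold without the ICM embryos AC (adjusted p = 0.0519) or AG (adjusted p = 0.0503). Of 32 FGF, ERK and receptor kinase genes, FGFR4 was higher in ICM and IGF2R higher in M, with a median of 0.29. FGFR4 held 0.165 to 26.98 CPM in M (median 15.3) and 44.2 to 401 CPM in ICM (median 186), at 3.91 ± 0.71 (adjusted p = 0.00428), without overlap. IGF2R gave 2025 counts in M and 57 in ICM (-4.63 ± 1.12, adjusted p = 0.031), and its call was lost without any of 6 embryos, at an adjusted p of up to 0.0785.

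Pluripotency genes showed few differences between the groups. Of 10 naive genes tested, TBX3 was called, and the list median was 0.07. Of 14 core and primed genes none was called, with a median of 0.69. In edgeR 4 of these 14 had an unadjusted p under 0.05, as had 3452 of all 14721 genes tested. POU5F1, SOX2 and NANOG were not analysed here. TBX3, a T-box factor, held 254 to 821 CPM in M (median 554) and 17.9 to 274 CPM in ICM (median 135), at -1.98 ± 0.40 (adjusted p = 0.00962). KLF4 held 190 to 1038 CPM in M and 170 to 1892 CPM in ICM (0.52 ± 0.43, adjusted p = 0.573), and the ranges overlapped over most of their length. KLF17 (-0.14 ± 1.08, adjusted p = 1) and ESRRB (-0.41 ± 0.83, adjusted p = 0.913) were not called, with standard errors so wide that a change of 2-fold lay within them. Among 15 genes of DNA methylation, TET1, which oxidizes 5-methylcytosine, was the 1 call. TET1 held 469 to 1968 CPM in M (median 1172) and 46.2 to 481 CPM in ICM (median 267), at -2.37 ± 0.42 (adjusted p = 0.00374), and was lower by 1.63 against all EB cells (adjusted p = 0.0107).

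Among the genes with the smallest p whose sums did not overlap, ACADSB, CD63, PSAP and HERC5 were higher in ICM. ACADSB, a short branched-chain acyl-CoA dehydrogenase, held 45.8 to 108 CPM in M (median 62.1) and 225 to 648 CPM in ICM (median 538), at 2.75 ± 0.29 (adjusted p = 2.03e-05). The lysosomal tetraspanin CD63 rose by 2.40 ± 0.28 (adjusted p = 8.41e-05), and PSAP, the precursor of the saposins that aid lipid breakdown in lysosomes, by 2.64 ± 0.37 (adjusted p = 0.00043). Among these, ACADSB was also called against all EB cells (2.00, adjusted p = 0.0187), while CD63 (1.58, adjusted p = 0.0552) and PSAP (2.02, adjusted p = 0.0942) were not. HERC5, a ligase for the interferon-induced modifier ISG15, gave 1 count in M and 1652 in ICM, a ratio of 3120 with an interval of 559 to 123320 (adjusted p = 0.000252).

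Genes higher in M by the same rule fell into a strongly expressed and a weakly expressed set. FAM118B, a protein of Cajal bodies, had the smallest p of all named genes: it held 651 to 1182 CPM in M (median 906) and 135 to 230 CPM in ICM (median 171), at -2.41 ± 0.21 (adjusted p = 1.28e-06), and -1.59 against all EB cells (adjusted p = 0.00192). RESF1, a factor of retroelement silencing, held 1947 to 4860 CPM in M and 740 to 1316 CPM in ICM (-1.75 ± 0.22, adjusted p = 0.000127), and was lower against all EB cells too (-2.17, adjusted p = 0.000479). The cytoskeletal septin SEPTIN7 (-1.45 ± 0.22, adjusted p = 0.000951) and ASS1, argininosuccinate synthase of arginine synthesis (-1.54 ± 0.24, adjusted p = 0.00132), were measured in every sum of both groups.

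The weakly expressed set was all but absent in ICM. REEP1, a shaper of endoplasmic reticulum tubules, gave 4526 counts in M and 2 in ICM, a ratio of 1198 with an interval of 331 to 9896 (adjusted p = 0.000172). AHR, the aryl hydrocarbon receptor, gave 2664 and 2 counts (ratio 705.2, interval 195 to 5826, adjusted p = 0.00112), and FGL2, a fibrinogen-like secreted protein, 3637 and 3 counts (ratio 642, interval 219 to 3114, adjusted p = 0.00124). CA3, carbonic anhydrase 3, RALGDS, an exchange factor for Ral GTPases, and PTPN21, a tyrosine phosphatase, had no count in ICM and were at least 346-fold, 198-fold and 190-fold higher in M (adjusted p = 0.00256, 0.00607 and 0.0218). Not all M cells carried these transcripts: AHR exceeded 1 TPM in 18, REEP1 in 17 and CA3 in 13 of 46 M cells. PTPN21 was uneven over the M sums, from 0.0625 CPM in embryo W to 24.6 CPM in S and 65.5 CPM in V. Its fold bound is for the group and does not describe each embryo.

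**Figure D4:**
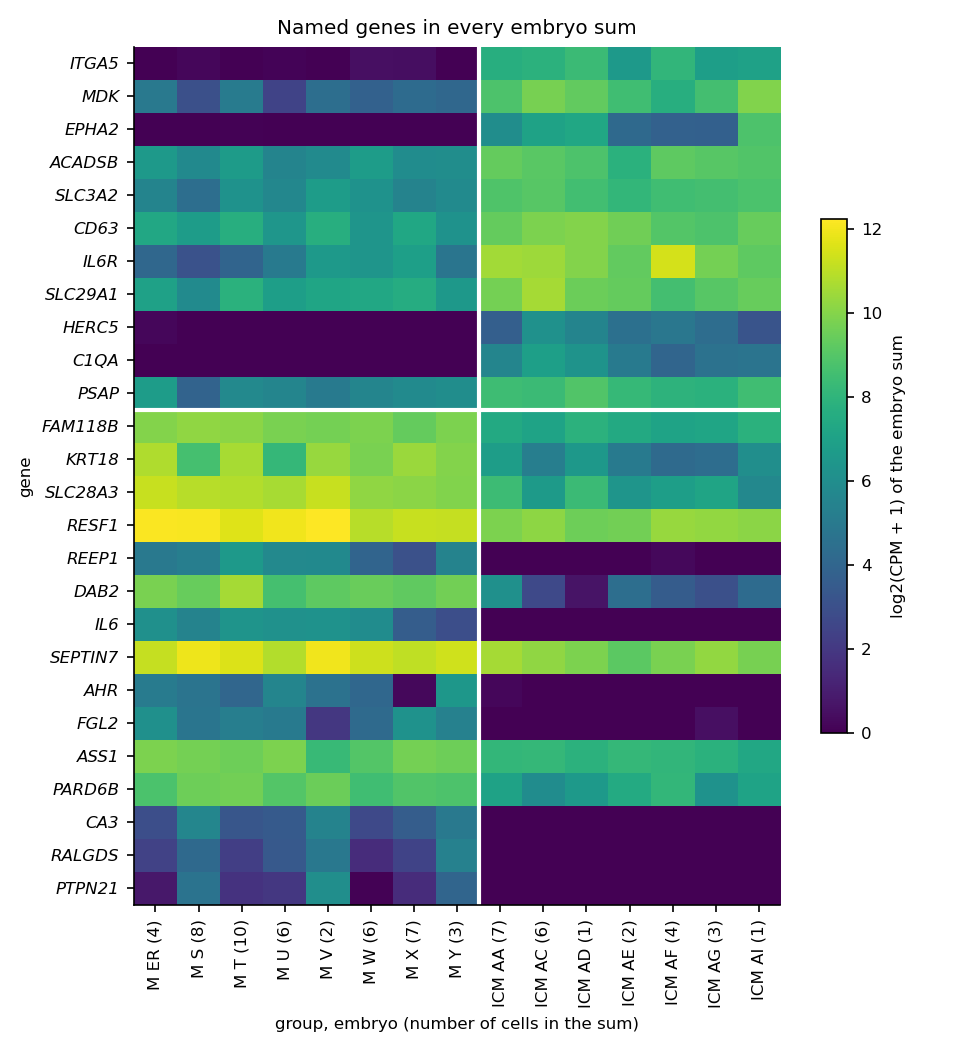
Each row is a gene reported here that was named by rule (the 4 markers, the smallest p and the largest changes in each direction) and each column an embryo sum, with its number of cells in brackets; the colour is log2(CPM + 1). The 11 genes above the horizontal line are higher in all 7 ICM sums than in all 8 M sums, and the 15 below it are higher in all M sums; 7 of those 15 (REEP1, IL6, AHR, FGL2, CA3, RALGDS and PTPN21) have at most 3 counts in ICM.

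Carriers of amino acids and nucleosides changed in both directions, with 5 calls of 20 tested, against 2.45% of all genes, and a median of 0.26. SLC3A2, the heavy chain of the large neutral amino acid exchangers, rose from 20.6 to 106 CPM in M (median 53.7) to 272 to 541 CPM in ICM (median 385), at 2.78 ± 0.32 (adjusted p = 7.93e-05). SLC3A1 and SLC7A9, the 2 chains of the cystine and dibasic amino acid carrier, were both higher in ICM. SLC7A9 held 0 to 11.05 CPM in M and 147 to 2426 CPM in ICM (8.40 ± 1.27, adjusted p = 0.00104), and SLC3A1 0 to 35.6 CPM and 56.0 to 684 CPM (4.41 ± 1.10, adjusted p = 0.0379), both without overlap. The SLC3A1 call was lost without any of 9 embryos, at an adjusted p of up to 0.0737. The nucleoside carriers moved apart. SLC29A1, the equilibrative carrier, rose by 2.44 ± 0.32 (adjusted p = 0.00024). SLC28A3, the sodium-coupled concentrative carrier, held 982 to 2416 CPM in M (median 1724) and 51.0 to 333 CPM in ICM (median 115), at -3.36 ± 0.39 (adjusted p = 8.41e-05). Against all EB cells SLC28A3 did not differ by the test (-0.38, adjusted p = 0.914), and its TE sums had a median of 2644 CPM on the common scale.

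Of 24 redox enzymes, 4 were called, all higher in ICM, 20 had a positive sign and the median was 0.63. Over all 14721 genes tested 1.48% were called higher in ICM, and 6112 had a positive sign. The peroxiredoxin PRDX2 held 53.8 to 412 CPM in M (median 183) and 492.9 to 1160 CPM in ICM (median 780), at 2.03 ± 0.33 (adjusted p = 0.00141), and PGD of the pentose phosphate pathway rose by 1.86 ± 0.38 (adjusted p = 0.00999). PRDX1 (1.89 ± 0.48, adjusted p = 0.043) and GSTO1 (2.95 ± 0.74, adjusted p = 0.0379) lost their calls without any of 12 and 10 embryos, at adjusted p of up to 0.0963 and 0.0764. In glycolysis PGK1 (1.51 ± 0.30, adjusted p = 0.00755) and PFKL (2.72 ± 0.58, adjusted p = 0.0147), and in the TCA cycle DLD (0.87 ± 0.23, adjusted p = 0.0469), were higher in ICM. The 2 glycolysis genes were the calls of 33 tested, and the list medians were 0.29 for glycolysis and 0.24 for the TCA cycle. In the respiratory chain NDUFA10 was the 1 call of 32 (0.86 ± 0.22, adjusted p = 0.0402). Of 43 lipid and sterol genes, 30 had a positive sign and the median was 0.64, with SQLE higher in ICM (3.24 ± 0.84, adjusted p = 0.0461) and SOAT1 higher in M (-0.92 ± 0.24, adjusted p = 0.0497). The calls of DLD, NDUFA10, SQLE and SOAT1 were lost without any of 14, 9, 11 and 13 embryos, at adjusted p of up to 0.0933, 0.103, 0.0946 and 0.0891.

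Surface markers gave 5 calls of 22 tested (CD63, C1QA, PECAM1, CD9 and CD244), all higher in ICM, with a median of 1.28. Over all genes 1.48% were called higher in ICM. C1QA, a chain of complement C1q, had no count in M and 2685 in ICM, at 15.0 to 119 CPM in every ICM sum, and exceeded M at least 1690-fold (adjusted p = 0.000337). It exceeded 1 TPM in 20 of 24 ICM cells and in 0 of 28 TE cells. PECAM1, an adhesion molecule of endothelium and blood cells that is also known from pluripotent cells, held 0 to 24.1 CPM in M (median 2.06) and 9.45 to 373 CPM in ICM (median 209), at 5.01 ± 1.15 (adjusted p = 0.0218). The ranges overlapped through the single cell of embryo AI, and without the M embryo S the call was lost (adjusted p = 0.053). CD244, a receptor of lymphoid cells, was at least 2959-fold higher in ICM by its 4699 counts, but these came from 3 of 7 ICM sums (adjusted p = 0.0342). CD9 rose by 1.13 ± 0.27 (adjusted p = 0.0327), with 72.1 to 103 CPM in M and 119 to 230 CPM in ICM. The calls of CD244 and CD9 were lost without any of 10 and 12 embryos, at adjusted p of up to 0.0647 and 0.0782.

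Markers of blood and endometrium were read beside these genes. Of 21 listed, 12 were matched, and their summed level was 0.325 to 14.8 CPM in M and 14.1 to 82.1 CPM in ICM. The defining leukocyte marker PTPRC was at 0 in both groups, as was CSF1R. The sum in ICM came mostly from HBB (1706 counts), LTF (585) and LYZ (375), and none of the 9 tested was called; their part in C1QA, PECAM1 and CD244 was not tested. Cumulus and granulosa markers summed to at most 0.312 CPM in M and 0.387 CPM in ICM, with FSHR at 0 in both.

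**Figure D5:**
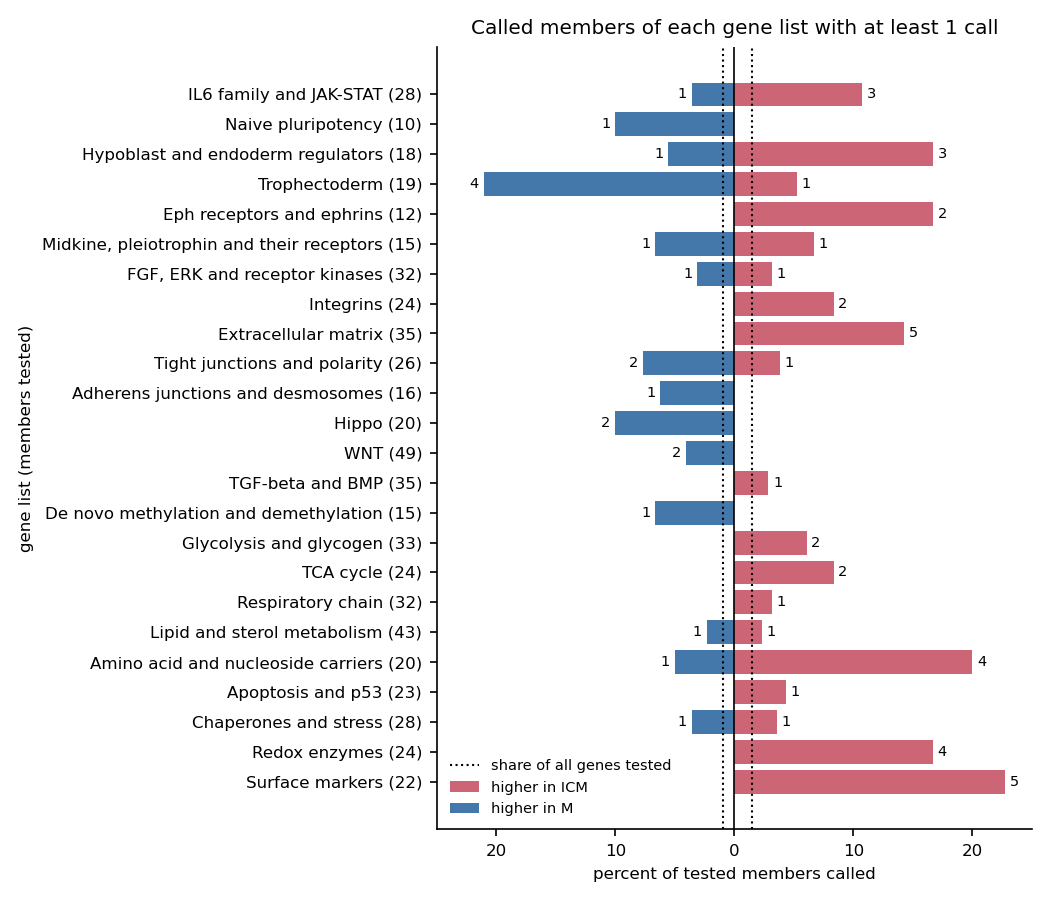
Bars give the percent of tested members of each gene list that were called, to the right for higher in ICM (red) and to the left for higher in M (blue), with the number called at the end of the bar and the number tested in brackets; dotted lines mark the 1.48% and 0.971% of all genes. Surface markers, carriers, redox enzymes and extracellular matrix have 4 or 5 calls toward ICM each, and the trophectoderm list has 4 toward M.

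The 35 lists held 1141 genes, of which 779 were matched and 721 tested, and 58 different genes were called. The remaining calls were ZNRF3 (759 counts in M, none in ICM, adjusted p = 0.0308) and PORCN (-2.94 ± 0.72, adjusted p = 0.034) among 49 WNT genes, CIDEB among 23 apoptosis genes (1 count in M, 132 in ICM, adjusted p = 0.0485), and PDIA3 (0.78 ± 0.16, adjusted p = 0.00999) and DNAJB1 (-1.30 ± 0.28, adjusted p = 0.0166) among 28 chaperones. Without any of 6, 8 and 13 embryos the calls of ZNRF3, PORCN and CIDEB were lost, at adjusted p of up to 0.058, 0.0744 and 0.0942. The PDIA3 call was lost with all 7 lineages in 1 model (adjusted p = 0.569) and against all EB cells (adjusted p = 0.935). That of DNAJB1 was lost with limma on mean log2(TPM + 1) (adjusted p = 0.262) and against all EB cells (adjusted p = 0.0852). In 9 lists edgeR called no gene: core and primed pluripotency, PI3K and AKT (4 of 25 with an unadjusted p under 0.05), gap junctions (2 of 4), NOTCH (9 of 23), oocyte and genome activation (8 of 17), polycomb (3 of 26), cell cycle (8 of 31), and the blood (4 of 9) and cumulus (0 of 3) markers. Over all genes 3452 of 14721 had an unadjusted p under 0.05 in edgeR, and the list counts are to be read beside this share. The oocyte list had the lowest median of all, -1.30, with 13 of 17 genes on the M side, and -2.32 with the bounds used for the hypoblast list. Of all 14721 genes tested, 7430 were on the M side. The lists were chosen with earlier results of these data known, so their counts are a description.

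Comparisons with TE were used for levels and not as tests, since the same values defined ICM and TE. By the same procedure 111 genes passed between ICM and TE (0.754%) and 119 between M and TE (0.808%), and these fits share the ICM or the M sums with the main comparison. For the 4 markers the log2 difference of TE minus M was 0.04 for IL6, 8.92 for ITGA5, 7.46 for EPHA2 and 2.38 for MDK. The EPHA2 value rests mainly on the TE sum of embryo AI, at 36.7 CPM, while those of AB and AE were at 0.84 and 0.29 on the log2(CPM + 1) scale and the other 7 held no count. That of ICM minus TE was 1.29 for ITGA5, 4.91 for EPHA2 and 2.51 for MDK, and IL6 was at 0 in ICM.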

How the data were processed

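Single cells of pig embryos were sequenced with Smart-seq2 and Nextera XT, which do not mark the strand. The authors trimmed the reads, aligned them with HISAT2 2.1.0, kept uniquely mapped pairs, counted them on Ensembl genes with HTSeq, and dropped cells of low depth or much mitochondrial RNA as well as 4 outliers. The deposited tables hold raw counts and TPM for each cell, for 22840 entries, of which 11453 have a symbol; 26.3% of the counts lie on entries without one. The deposited counts were summed per embryo and group, and genes with deposited TPM over 1 in at least 3 of the 220 cells were tested. Sums were normalized with TMM and tested with glmQLFit and glmQLFTest in edgeR 4.0.16 (R 4.3.3). P-values were adjusted by Benjamini-Hochberg and called under 0.05. Log2 fold changes are ICM minus M, with the SE taken as |log2 fold change| over the root of F. CPM are TMM-scaled. Where a group held no count the fold is a bound against 3 counts over the group, and with 1 to 3 counts the ratio is given with an exact 95% interval. Intervals and bounds cover counting error only, since reads carry no molecular identifiers. Medians of lists with bounds leave out genes at or under 3 counts in both groups.

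Named were IL6, ITGA5, EPHA2 and MDK; in each direction the 12 genes with the smallest p and the 4 with the largest fold change among called genes with a symbol whose sums do not overlap; and list members that were called or define their list. Some genes that the rule names are not reported here. The members and lists were chosen with earlier results of these data known. No 2 cells held identical counts (highest correlation 0.854 among 70 cells). Nothing but the cell identifier gives the embryo, so p-values measure the spread between these embryo sums, and sows are unknown. Genes with close paralogs (KRT8, KRT18) may lose reads that map to several places, and overlapping antisense genes cannot be told apart. The edgeR and DESeq2 steps (DESeq2 1.42.0) were tested on simulated data in which 200 of 14721 genes were given an 8-fold change. There edgeR recovered 47% of the changed genes with 4 false calls, and DESeq2 64% with 130 false calls. A gene that edgeR did not call may therefore still differ. The mitochondrial share was not analysed here, because 0 of 13 mitochondrial protein genes are among the entries used. Tables were handled with pandas 2.3.3 and permutation tests with scipy 1.17.1. Alternatives were DESeq2, no TMM, other filters, limma 3.58.1 on mean log2(TPM + 1), a robust fit, sums of at least 2 cells, the cell AO23_e5 as its own embryo, pools apart, all 7 lineages in 1 model, and each embryo left out.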

Additional observations from a re-analysis of the deposited data

Results flagged for a closer look

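In 36 of 199 tests the highest or lowest embryo sum of a group lay apart from the others by Dixon's criterion. Its nominal rate of 1 in 20 is no measure of chance here, since the sums differ in their number of cells and many are 0. All values are log2(CPM + 1), and none is explained here. A lone sum held the few counts of an otherwise empty group in 12 cases, where any count meets the criterion. In M these were EPHA2 (0.0693, embryo T), HERC5 (0.236, ER), CIDEB (0.236, ER), APOE (0.0874, W), NID1 (0.0693, T), TGFBR3 (0.102, X), EPHB4 (0.370, X) and IFI35 (0.0874, W). In ICM they were REEP1 (0.242, AF), AHR (0.198, AA), FGL2 (0.513, AG) and CCN1 (0.126, AF).

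Among ICM sums the single cell of embryo AD was lowest for STAT3 (6.70), CD9 (6.91), IL6ST (5.35) and TPM4 (6.92), at 0 for ESRRB and PDGFRA, and highest for CCN2 (1.28). The single cell of embryo AI was lowest for TBX3 (4.24) and PECAM1 (3.39) and at 0 for CLDN4. Embryo AE was lowest for ACADSB (7.82), AF was at 0 for TGFBR3, and AA was highest for GRHL2 (1.17).

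Among M sums embryo V was lowest for FGL2 (1.99) and at 0 for KLF17, TPM4 and GSTO1, and embryo X was lowest for AHR (0.286). Embryo Y was lowest for GRHL2 (1.63) and at 0 for SCIN. Embryo T was lowest for LAPTM4B (1.68) and highest for PSME2 (1.16) and TAPBP (1.02), and embryo W was highest for MMP2 (1.04).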

How the results depend on the processing

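The count of 361 genes between M and ICM was 1216 with DESeq2, 666 with limma on log2(TPM + 1), 38 and 132 with the first and last 4 pools, 185 against all EB cells, and 250 to 419 with each embryo left out. It was 264 to 487 under the other settings, which is within 1.5 times. The 111 genes between ICM and TE became 457 with DESeq2 and 58 to 184 with an embryo left out (61, 62, 67 and 58 without ICM of AA, AC, AF and AG, 67, 68, 65 and 66 without TE of AA, AC, AD and AG, 184 without E6-ER); with the embryo as a block 89 passed, of which 35 were among the 111. The 119 between M and TE became 611 with DESeq2, 241 with sums of at least 2 cells and 56 to 219 with an embryo left out (73, 56, 76, 65, 74 and 68 without M of ER, S, T, U, W and X, 219 without E6-ER). No embryo gave both M and ICM cells, so no paired analysis of these was possible because the groups share no embryo or replicate number. The share of calls higher in ICM was 60.4%, and 51.2% with DESeq2 and 44.7% in the first 4 pools.

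Of 103 genes named with a fold change, 92 were called, and apart from pools and the EB comparison 47 of them lost the call in at least 1 setting, 27 with an embryo left out; 76 lost it in the first 4 pools, 55 in the last 4 and 56 against all EB cells. Signs turned against all EB cells for KRT18 (2.38), KRT8 (3.37), DAB2 (0.54), GATA3 (3.76), GATA2 (4.05), NPC2 (0.54), ESRRB (0.23), KLF4 (-0.50) and KLF17 (0.00885). In the last 4 pools they turned for LIFR (1.57), GATA2 (0.38), KLF4 (-0.49) and KLF17 (0.029), with sums of at least 2 cells for KLF4 (-0.24) and KLF17 (0.30), with limma for LIFR (0.058), and with an embryo left out for KLF4 (-0.15 without AD, range -0.15 to 0.85) and KLF17 (0.049 without AD, 0.048 without AI and 0.070 without X, range -0.60 to 0.070). Genes detected per cell differed by 12.2 with embryos of at least 2 cells, against -76.6. Of the genes whose sign turned, KRT18, KRT8, DAB2 and NPC2 were called between M and ICM. The cause was not tested.

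The sums of 1 cell (AD and AI) carry the fewest counts of the 15 sums. The alternatives for the mitochondrial share were not run.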

Other observations

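The genes of these paragraphs were chosen after their values were seen, and they are given as values with no grouping tested. Several proteins of the lysosome were higher in ICM. The protease CTSC held 60.7 to 146 CPM in M and 230 to 897 CPM in ICM (log2 fold change 2.06 ± 0.31, edgeR adjusted p = 0.00112), and CTSB rose by 2.35 ± 0.46 (adjusted p = 0.00745). The hexosaminidase chain HEXA rose by 2.40 ± 0.43 (adjusted p = 0.00428), and the lysosomal membrane protein LAPTM4B by 2.91 ± 0.56 (adjusted p = 0.00599). LAMP2 was higher in ICM (1.62 ± 0.41, adjusted p = 0.0394) and the cholesterol carrier NPC2 higher in M (-1.38 ± 0.37, adjusted p = 0.0497). The last 2 calls were lost without any of 11 and 12 embryos, at adjusted p of up to 0.0841 and 0.101. Of the genes higher in ICM, none was called against all EB cells. The adjusted p there was 0.278 for CTSC, 0.448 for CTSB, 0.118 for HEXA, 0.174 for LAPTM4B and 0.305 for LAMP2. CTSB also lost its call with all 7 lineages in 1 model (adjusted p = 0.124).

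Some genes known from interferon responses and antigen processing had few or no counts in M and more in ICM. IFI35 gave 1 count in M and 1056 in ICM (adjusted p = 0.00094), and DTX3L 0 and 791 (adjusted p = 0.0461, lost without any of 12 embryos at up to 0.0806). The proteasome activator subunit PSME2 held 0 to 1.23 CPM in M and 4.02 to 117 CPM in ICM (8.28 ± 1.42, adjusted p = 0.00288), and tapasin, TAPBP, 0 to 1.03 and 4.31 to 98.5 CPM (7.32 ± 1.14, adjusted p = 0.00132). The ISG15-conjugating enzyme UBE2L6 rose by 5.90 ± 1.27 (adjusted p = 0.0156) and the RNA helicase MOV10 by 4.89 ± 0.89 (adjusted p = 0.00444). SLAMF7, a receptor of immune cells, had no count in M and 5196 in ICM (adjusted p = 0.00905). Of the blood and endometrial markers, PTPRC was at 0 in both groups, HBB gave 160 counts in M and 1706 in ICM, LTF 0 and 585 and LYZ 0 and 375, and the median of their summed level was 8.12 CPM in M and 76.1 CPM in ICM; their part in these values was not tested.

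Among genes of the cytoskeleton, the actin-capping protein CAPG held 0 to 29.7 CPM in M and 128 to 1261 CPM in ICM (5.50 ± 1.06, adjusted p = 0.00626), the tropomyosin TPM4 rose by 3.47 ± 0.68 (adjusted p = 0.00707), scinderin, SCIN, by 3.42 ± 0.67 (adjusted p = 0.00745) and ARPC1B by 3.299 ± 0.86 (adjusted p = 0.0485, lost without any of 12 embryos at up to 0.0932). The membrane protease ST14 and its inhibitor SPINT1 rose by 2.32 ± 0.46 (adjusted p = 0.00745) and 2.38 ± 0.44 (adjusted p = 0.00524). CYP1A1, known as a target of AHR, gave 10 counts in M and 16208 in ICM (adjusted p = 0.00475), where AHR itself gave 2664 and 2. GRHL2, a factor of epithelial junction genes, gave 7716 counts in M and 18 in ICM (-8.42 ± 1.34, adjusted p = 0.00141).

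The morula cell AO23_e5, left out because its embryo is unclear, held 12.1 TPM of IL6, 54.8 TPM of MDK, 243 TPM of KRT18, 229 TPM of DAB2, 848 TPM of SLC28A3 and 0.270 TPM of IL6R, and was at 0 for ITGA5 and EPHA2. These values lie within the ranges over the other M cells, and GATA3 was at 0.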
